A study of Mus musculus with 39 samples.

Results

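The genes described here are 9 genes of myelin and of mature oligodendrocytes: Mbp, Mog, Mag, Mobp, Cnp, Cldn11, Opalin, Ermn and Apod. They were chosen by symbol from a table of 47561 genes, and all 9 were found, each in a single row. All 9 stood at 1 FPKM or more in all 39 libraries, so that none depended on a filter on low values. The libraries came from poly(dT)-selected RNA of mouse brain. The mice had been treated with saline or injected under the skin with soman. Soman is a nerve agent, an organophosphate that inactivates acetylcholinesterase. The LD50 is the dose lethal to 50% of animals, and the doses of soman were set relative to it: 1/10, 1/5 and 1/2. Tissue was collected at days 1, 3, 7 and 14. These 12 soman groups and 1 saline group had 3 libraries each. The labels give no strain, sex or age, no number of animals per library, no day for the saline brains and no number of injections. A difference from saline therefore also holds any difference between collection days, and the tests measure the spread between these libraries. All comparisons with saline share the same 3 saline libraries.

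Oligodendrocytes wrap axons of the central nervous system in myelin, a compacted stack of membrane that speeds the conduction of impulses. Progenitors marked by Pdgfra pass through a newly formed stage and then switch on the genes of compact myelin, of its adhesion to the axon and of its lipids, under transcription factors that include SOX10, OLIG1, OLIG2, NKX6-2 and MYRF. The messages of mature cells are abundant, so that white matter dominates their level in an extract of whole tissue. In bulk RNA, fewer oligodendrocytes and less RNA per oligodendrocyte cannot be told apart.

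Markers of the labelled tissue were present: the summed level of 12 neuronal genes lay between 2101 and 2641 FPKM in the libraries. Of the markers of peripheral myelin, Pmp2 was listed at 0 in 26 libraries, and Prx and Ncmap had medians of 0.246 and 0.257 FPKM. Pmp22, Drp2 and Egr2, which are not limited to Schwann cells, had medians of 13.1, 9.60 and 3.66 FPKM. Several libraries stood apart. The share of mitochondrial genes in the summed FPKM had a median of 10.4% over libraries and reached 23.1% and 27.6% in 2 of them, replicates 2 and 3 of day 7 at 1/10 LD50. Gene levels lay between those of the other 2 of their group in 7 libraries. These were replicate 3 of saline, of all doses on day 1 and of day 14 at 1/10 and at 1/5 LD50, and replicate 2 of day 7 at 1/10 LD50. In 6 libraries the summed level of 12 genes of hindbrain and spinal cord, such as the glycine transporter gene Slc6a5 and the Hox genes, was under 5 FPKM, against 17.9 to 24.4 FPKM in saline. Those 6 were replicate 2 of day 1 at 1/10 LD50, replicate 3 of day 3 at 1/10 and at 1/2 LD50, replicates 1 and 2 of day 7 at 1/2 LD50, and replicate 1 of day 14 at 1/2 LD50. Where a call of a member was lost without one of these sets of libraries, the value without them is given.

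The bases before the transcription start are shown for 4 of the genes, since the members moved together between libraries while Opalin departed from the rest across days. RefSeq promoters on GRCm38.p6 were matched by symbol for 8 of the 9 genes, with 10 starts in all, and the 250 bases before each start were searched on both strands. The motifs were ACAAAG, a core bound by SOX proteins such as SOX10, and CTGGCAC or CTGGTAC, the letters bound by MYRF. Capitals mark a match, on either strand, and the sequences run 5′ to 3′ along the gene's strand. Mag is shown for the start farthest upstream of its 3.
Mag, chr7:30914923-30915172, minus strand: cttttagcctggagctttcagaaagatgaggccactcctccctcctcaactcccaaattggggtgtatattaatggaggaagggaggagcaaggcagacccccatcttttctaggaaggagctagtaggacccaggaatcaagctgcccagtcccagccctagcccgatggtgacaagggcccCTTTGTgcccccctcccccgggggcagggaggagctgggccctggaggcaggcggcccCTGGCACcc
Cnp, chr11:100574689-100574938, plus strand: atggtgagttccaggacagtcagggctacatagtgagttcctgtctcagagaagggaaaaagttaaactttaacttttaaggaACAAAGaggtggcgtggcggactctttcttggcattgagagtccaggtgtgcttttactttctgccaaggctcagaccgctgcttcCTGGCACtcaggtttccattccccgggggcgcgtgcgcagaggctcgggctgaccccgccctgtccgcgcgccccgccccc
Mog, chr17:37023399-37023648, minus strand: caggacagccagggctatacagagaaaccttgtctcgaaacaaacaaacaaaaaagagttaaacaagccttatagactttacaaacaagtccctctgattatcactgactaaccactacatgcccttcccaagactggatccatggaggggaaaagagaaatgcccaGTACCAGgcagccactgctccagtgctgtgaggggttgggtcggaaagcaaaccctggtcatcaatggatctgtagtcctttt
Opalin, chr19:41077114-41077363, minus strand: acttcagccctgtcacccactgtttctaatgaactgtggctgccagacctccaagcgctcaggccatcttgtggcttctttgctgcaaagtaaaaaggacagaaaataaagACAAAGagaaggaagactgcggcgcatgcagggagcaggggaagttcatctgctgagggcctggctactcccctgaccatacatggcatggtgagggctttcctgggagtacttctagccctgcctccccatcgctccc
The SOX letters were in promoters of 5 of the 8 member genes (Apod, Cnp, Mag, Mobp and Opalin). By promoter they were in 6 of the members' 10 and in 16.5% of all 32851. The MYRF letters were in 3 of the 8 genes (Cnp, Mag and Mog), which is 4 of the 10 promoters, and in 5.93% of all promoters. In both counts 2 overlapping starts of Mag share the same matches. Cnp held both, with ACAAAG starting 167 bases and CTGGCAC 81 bases before the start. Mag also held both, 67 and 9 bases before the start shown. Opalin held only the SOX letters, 139 bases before its start, and Mog only those of MYRF on the opposite strand, 83 bases before it. Mobp held CTTTGT, the SOX letters read on the opposite strand, 6 times. Ermn and Cldn11 held neither, which says only that these letters are not in this window. Such matches describe the letters and are not measured binding.

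The 9 genes spanned over 2 orders of magnitude. FPKM is scaled to transcript length, so that levels can be set side by side between genes. Mbp, which encodes the protein that holds the cytoplasmic faces of compact myelin together, had a mean of 1463 FPKM over the 39 libraries and ranked 10 among all genes. Mobp, another protein of compact myelin, followed at 412.1 FPKM. Cnp, an enzyme of the cytoplasmic channels of myelin, stood at 162.8 FPKM. Mag, the adhesion molecule on the membrane that faces the axon, stood at 136.04 FPKM and Cldn11, the claudin of the tight junctions of central myelin, at 109.8 FPKM. Mog, on the outermost surface of the sheath, stood at 73.5 FPKM, and Apod, a lipid-binding lipocalin made by oligodendrocytes and other glia, at 66.1 FPKM. Ermn, a protein of the cytoskeleton of mature oligodendrocytes, had 17.7 FPKM and Opalin, a membrane protein of their paranodal loops, 9.35 FPKM. The highest library exceeded the lowest by 2.07 times for Apod, the narrowest span, and by 3.15 times for Cnp, the widest.

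**Figure D1:**
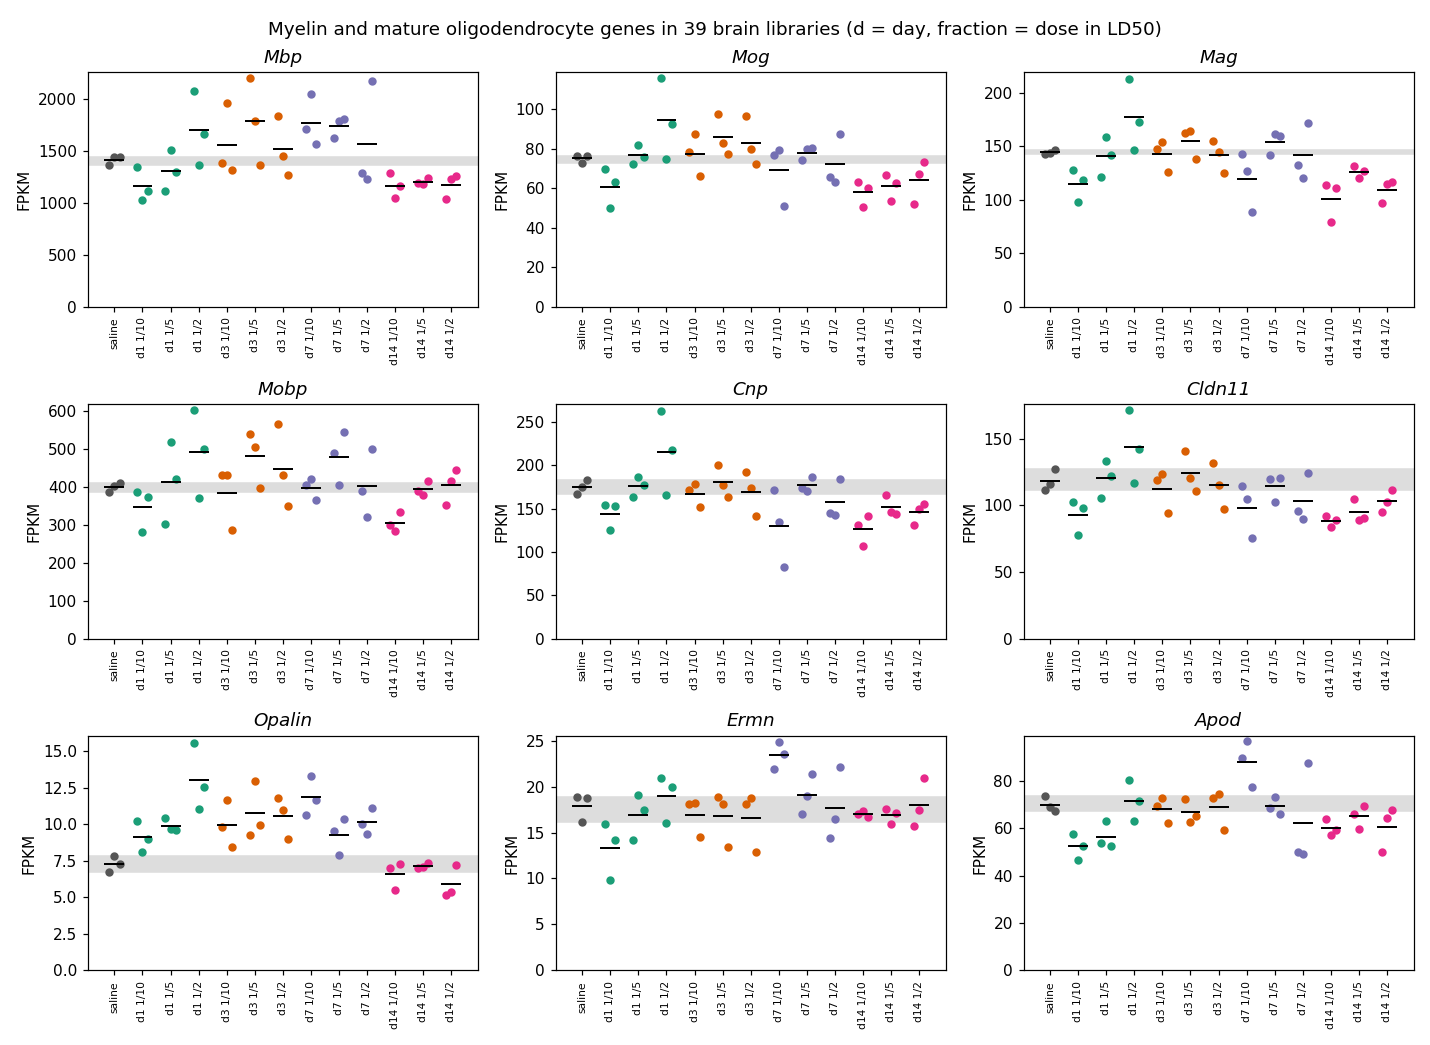
FPKM of each of the 9 genes (vertical axis, from 0) in the 3 libraries of each of 13 groups (points, coloured by day), with the group mean (black line) and the range of the saline libraries (grey band). Opalin lies above the band in all 27 libraries of days 1, 3 and 7 and in none of the 9 at day 14, whereas the other genes lie on both sides of it before day 14.

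In the main fit of all 39 libraries, Opalin was the only member called as higher than saline, and it was so at every day before day 14. In saline it stood at 6.76, 7.82 and 7.26 FPKM. At day 1 it stood at 10.2, 8.10 and 9.01 FPKM at 1/10 LD50, at 10.4, 9.69 and 9.58 FPKM at 1/5 LD50, and at 15.5, 11.03 and 12.6 FPKM at 1/2 LD50. All 9 libraries of that day lay above all 3 of saline, and the 1/2 LD50 group lay above both other doses. At day 3 the values were 9.78, 11.6 and 8.42 FPKM at 1/10 LD50, 9.27, 12.96 and 9.97 FPKM at 1/5 LD50, and 11.8, 10.98 and 8.99 FPKM at 1/2 LD50. At day 7 they were 10.6, 13.3 and 11.6 FPKM at 1/10 LD50, 9.56, 7.89 and 10.4 FPKM at 1/5 LD50, and 10.01, 9.36 and 11.1 FPKM at 1/2 LD50. The 27 libraries of these 3 days all exceeded the highest saline library, the lowest of them by little (7.89 against 7.82 FPKM). Of all 14701 genes tested, 0.122% had all 27 above saline. This grouping of 3 days follows the days on which Opalin was high, so that the share is a description and not a test. At day 14 Opalin stood at 7.01, 5.48 and 7.27 FPKM at 1/10 LD50, at 7.03, 7.08 and 7.32 FPKM at 1/5 LD50, and at 5.18, 5.39 and 7.19 FPKM at 1/2 LD50. None of these 9 exceeded the highest saline library, and 3 were below all of saline.

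Single groups were compared with saline by limma on log2(FPKM + 1), with p-values adjusted over all genes tested and a threshold of 0.05. At 1/2 LD50 at day 1 Opalin rose by 0.75 ± 0.13 on the log2 scale (SE, limma adjusted p = 0.0102), from 7.28 ± 0.531 to 13.04 ± 2.30 FPKM (SD, n = 3 each). It was the only member of 9 past the threshold there, in a comparison in which 0.116% of all genes passed. It rose by 0.49 ± 0.13 at 1/5 LD50 at day 3 (limma adjusted p = 0.0201) and by 0.48 ± 0.13 at 1/2 LD50 at day 3 (limma adjusted p = 0.0247), again as the only member, where 8.6% and 8.44% of all genes passed. At day 7 it rose by 0.63 ± 0.13 at 1/10 LD50 (limma adjusted p = 0.00238) and by 0.43 ± 0.13 at 1/2 LD50 (limma adjusted p = 0.0419, the only member, beside 8.39% of all genes). The log2 differences from saline were 0.29 and 0.40 at 1/10 and 1/5 LD50 at day 1, 0.39 at day 3 at 1/10 LD50 and 0.31 at day 7 at 1/5 LD50, with limma adjusted p = 0.434, 0.537, 0.0695 and 0.119. At day 14 they were -0.13, -0.02 and -0.27 at the 3 doses. With the doses of a day pooled, Opalin rose by 0.48 ± 0.11 at day 1, 0.45 ± 0.11 at day 3 and 0.46 ± 0.11 at day 7 (limma adjusted p = 0.0393, 0.00514 and 0.00505). It was the only member of 9 past the threshold in each of these, where 0.381%, 16% and 14.6% of all genes passed. These pooled comparisons were added after the values were seen. Without the 6 libraries of low hindbrain level the pooled rises were 0.50, 0.52 and 0.50 (limma adjusted p = 0.0384, 0.00236 and 0.0076). Without the 7 libraries that lie between others they were 0.49, 0.45 and 0.43 with limma adjusted p = 0.695, 0.0680 and 0.104, so that the calls were lost and the sizes were not. In that setting none of the calls of Opalin in 5 single groups was left either (differences of 0.43 to 0.77, limma adjusted p between 0.109 and 0.565). At day 1 the pooled call was also lost on leaving out any of 10 single libraries (limma adjusted p up to 0.297), and at 1/2 LD50 without replicate 1 or 3 of that group or of saline (up to 0.144). At day 3 the call at 1/5 LD50 was lost without its replicate 2 or without saline replicate 1 or 3, and that at 1/2 LD50 without its replicate 1 or 2 or without saline replicate 1 or 3. The call at 1/2 LD50 at day 7 was lost without any of its 6 libraries, and without the 6 of low hindbrain level, which leave 1 library in that group, the difference was 0.55 (limma adjusted p = 0.260). At 1/10 LD50 at day 7 Opalin remained past the threshold whichever single library was left out, with 0.49 and limma adjusted p = 0.330 when both libraries of high mitochondrial share were left out and a lone library was assumed to vary like the other groups.

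**Figure D2:**
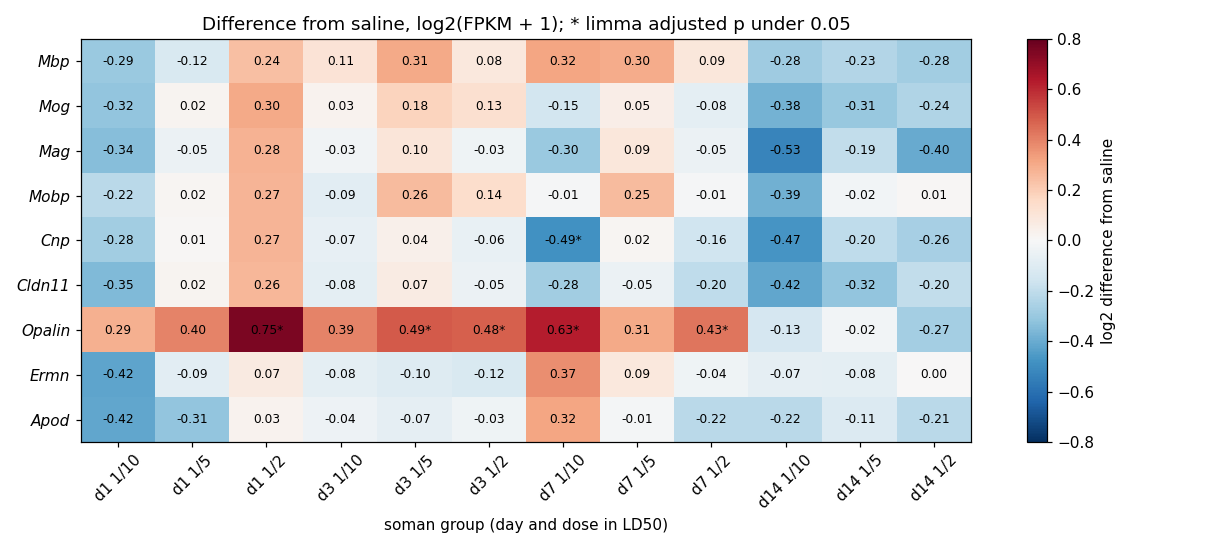
Log2 difference from saline of each of the 9 genes (rows) in each of the 12 soman groups (columns, day and dose in LD50), on log2(FPKM + 1), with red for higher and blue for lower and an asterisk where the limma adjusted p is under 0.05. The row of Opalin is red up to day 7, the first column is blue for the other 8 genes, and in the columns of day 14 only Mobp (0.01) and Ermn (0.00) at 1/2 LD50 are not below 0.

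Of the other 8 genes, Cnp alone passed the threshold in a comparison of a single soman group with saline in the main fit. In several groups, however, all 3 libraries of some genes lay outside the saline range. Cnp fell at 1/10 LD50 at day 7, from 166.9, 174.8 and 182.9 FPKM in saline to 171.9, 134.7 and 83.1 FPKM. The first of these lay within the saline range and the other 2 were the libraries of high mitochondrial share. The difference was -0.49 ± 0.17 on the log2 scale (SE, limma adjusted p = 0.0451), and 2 of 9 members passed there (Opalin up, Cnp down), beside 19.5% of all genes. Without the 2 libraries it was -0.02 (limma adjusted p = 0.977), and without replicate 3 alone it was -0.20 (limma adjusted p = 0.488). It was lost as well without replicate 2, without any single saline library, after median-ratio scaling (limma adjusted p = 0.0795), without the 6 libraries of low hindbrain level (0.0504) and without the 7 that lie between others (0.217). After median-ratio scaling the count of members at 1/10 LD50 at day 7 stayed within 1.5 times of 2, with Opalin still past the threshold. A member other than Opalin and Cnp therefore passed in that setting, and its name and direction are not given here. In the main fit no member passed at 1/10 LD50 (0.347% of all genes) or 1/5 LD50 (0.0136%) at day 1, at 1/10 LD50 at day 3 (6.97%), at 1/5 LD50 at day 7 (15.4%) or at any dose at day 14 (0.435%, 0.163% and 0.415%). At an unadjusted limma p under 0.05 the counts of members were 5, 2, 1, 1, 4, 1 and 1 in these 7 comparisons. Here and below, counts at an unadjusted p have no share of all genes at that cutoff beside them. The percentages of genes that passed are those at the adjusted threshold. The mean of all 12 soman groups gave no member either (1 at an unadjusted limma p under 0.05), beside 2.57% of all genes.

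At day 1 the means of the 8 members other than Opalin lay below saline at 1/10 LD50 and above it at 1/2 LD50, but no member passed the test for a difference among the doses. Mag stood at 143.1, 143.8 and 146.7 FPKM in saline. At day 1 it stood at 127.7, 97.8 and 118.7 FPKM at 1/10 LD50, at 121.3, 158.9 and 141.6 FPKM at 1/5 LD50, and at 212.9, 146.1 and 173.1 FPKM at 1/2 LD50. The lowest dose was below all of saline the highest dose did not overlap the lowest, and the middle dose overlapped both. At 1/10 LD50, 7 of 9 members (all but Mobp and Opalin) had all 3 libraries below all of saline, against 13.4% of all genes. The log2 differences of the 8 members other than Opalin lay between -0.42 for Apod and -0.22 for Mobp. At 1/2 LD50 all 9 were higher than saline on average, by 0.03 for Apod to 0.75 for Opalin, and Opalin alone had all 3 libraries above saline (7.93% of all genes did). The test for any difference among the 3 doses at day 1 passed for 0 of 9 members (lowest limma adjusted p = 0.201), beside 0.129% of all genes. At an unadjusted limma p under 0.05 there were 8 members, and the share of all genes at that cutoff is not given. The library with the lowest level of all 9 genes at 1/10 LD50, replicate 2, is among those of low hindbrain level.

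At day 7 the members parted from each other. Mbp stood at 1362, 1443 and 1434 FPKM in saline, and at day 7 at 1705, 2043 and 1562 FPKM at 1/10 LD50, at 1622, 1785 and 1799 FPKM at 1/5 LD50, and at 1284, 1227 and 2170 FPKM at 1/2 LD50. Of these 9 libraries 7 lay above all of saline, and the 2 below it were both of low hindbrain level. At 1/10 LD50, Mbp, Opalin, Ermn and Apod had all 3 libraries above saline (7.71% of all genes did), while Mag had all 3 below it (18.2%). Replicates 2 and 3 of that group are the libraries of high mitochondrial share. Mag stood at 127.1 and 89.0 FPKM in these and at 142.8 FPKM in replicate 1, next to the lowest saline library at 143.1 FPKM. Apod was the only member with a difference among doses within a day. It stood at 89.5, 96.7 and 77.4 FPKM at 1/10 LD50, at 68.7, 73.2 and 66.1 FPKM at 1/5 LD50 and at 50.1, 49.2 and 87.4 FPKM at 1/2 LD50. The lowest dose lay above the middle dose in all 3 libraries, and the highest dose was split, with its 2 libraries of low hindbrain level near 50 FPKM. The limma F-test among doses at day 7 gave an adjusted p = 0.02 for Apod (1 of 9 members, beside 25.4% of all genes). That call was lost without replicate 2 of 1/10 LD50 or without replicate 1 or 2 of 1/2 LD50 (limma adjusted p up to 0.105), and without both libraries of high mitochondrial share (0.348). Without all 6 libraries of low hindbrain level it was 0.0223. Without the 7 libraries that lie between others the call of Apod was lost as well (limma adjusted p = 0.192). Among doses at day 3 no member passed (0 at an unadjusted limma p under 0.05) and 0% of all genes did. At day 14 no member passed (0 at an unadjusted limma p under 0.05), beside 0.034% of all genes.

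From day 7 to day 14 members fell. At day 14 Mbp stood at 1285, 1048 and 1158 FPKM at 1/10 LD50, at 1191, 1175 and 1237 FPKM at 1/5 LD50, and at 1032, 1227 and 1255 FPKM at 1/2 LD50. All 9 values were below all of saline, and the 2 libraries of day 7 within their range, at 1284 and 1227 FPKM, were both of low hindbrain level. Over the 3 doses Mbp fell by 0.50 ± 0.11 on the log2 scale (SE, limma adjusted p = 0.0011), from 1688 ± 312 to 1179 ± 88.1 FPKM (SD, n = 9 each). Opalin fell by 0.60 ± 0.08 (limma adjusted p = 1.79e-06), from 10.4 ± 1.52 to 6.55 ± 0.907 FPKM, and the 9 libraries of the 2 days did not overlap. Mag fell by 0.29 ± 0.09 (limma adjusted p = 0.016), from 138.4 ± 25 to 112.3 ± 15.8 FPKM. Mog fell by 0.25 ± 0.10 (limma adjusted p = 0.0481), from 73.1 ± 11.2 to 61.03 ± 7.77 FPKM, a call lost on leaving out any of 12 of the 18 libraries (limma adjusted p up to 0.118). The call of Mog was also lost without a filter (limma adjusted p = 0.115) and with only the groups compared (0.0729). It was lost too with the length trend removed (0.0816) and in a fit without trend (0.0502). Thus 4 of 9 members fell and none rose, in a comparison in which 28.6% of all genes passed and 11.5% fell. The differences of Mobp, Cnp, Cldn11, Ermn and Apod lay between -0.21 and -0.10 (limma adjusted p = 0.0618 or more). Without the 6 libraries of low hindbrain level the difference was -0.65 for Mbp and -0.61 for Opalin. Without the 7 libraries that lie between others 2 of 9 members passed, with Mag at -0.30 (limma adjusted p = 0.0715) and Mog at -0.23 (0.181).

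Against day 1, day 14 was lower for 5 of 9 members. Opalin fell by 0.62 ± 0.08 on the log2 scale (SE, limma adjusted p = 1.72e-06), Mag by 0.34 ± 0.09 (0.0109), Mog by 0.31 ± 0.10 (0.0259), Cnp by 0.31 ± 0.10 (0.0313) and Cldn11 by 0.29 ± 0.09 (0.0247), while 14.9% of all genes passed and 7.67% fell. The differences of Mbp (-0.21), Mobp (-0.16), Ermn (0.10) and Apod (0.05) did not pass. The calls of Opalin and Mag held without any single library. Those of Mog, Cnp and Cldn11 were each lost without replicate 1 of 1/2 LD50 at day 1 (limma adjusted p = 0.0689, 0.08 and 0.0655), the highest library of 6 members, and without 3 to 8 other libraries. That of Cnp was also lost without the 6 libraries of low hindbrain level (-0.32, limma adjusted p = 0.0556). Without the 7 libraries that lie between others only the call of Opalin was left, with limma adjusted p = 0.0961 for Mag, 0.152 for Mog, 0.198 for Cnp and 0.223 for Cldn11. Between days 3 and 1 and between days 7 and 3 no member passed (1 each at an unadjusted limma p under 0.05, Apod and Ermn), while 23.5% and 6.06% of all genes did. Day and any batch shared by the libraries of a day cannot be told apart.

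**Figure D3:**
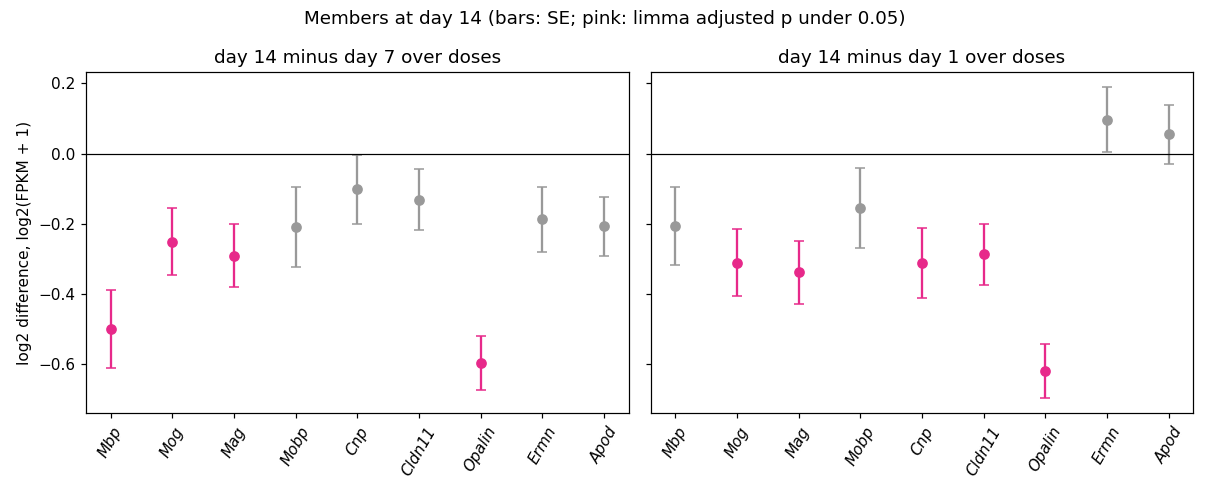
Log2 difference of day 14 from day 7 (left) and from day 1 (right), each over the 3 doses, for the 9 genes on log2(FPKM + 1), with bars for the SE and pink for a limma adjusted p under 0.05. Opalin has the lowest value in both panels (-0.60 and -0.62), and Ermn and Apod lie above 0 only against day 1.

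The low values at day 14 did not amount to a call against saline. Mag stood at 113.4, 79.1 and 110.7 FPKM at 1/10 LD50, at 131.5, 120.8 and 126.6 FPKM at 1/5 LD50, and at 97.3, 114.5 and 116.7 FPKM at 1/2 LD50. All 9 libraries lay below the lowest saline library (143.1 FPKM), as for Mbp and Cnp, and 3.31% of all genes had this. Mog and Cldn11 had 8 of 9 libraries below all of saline, Apod 7, Mobp 5, Opalin 3 and Ermn 2. The pooled difference of day 14 from saline was -0.38 ± 0.13 for Mag (limma adjusted p = 0.2), -0.31 ± 0.14 for Mog (0.393), -0.31 ± 0.12 for Cldn11 (0.323), -0.31 ± 0.14 for Cnp (0.407) and -0.26 ± 0.16 for Mbp (0.581). None of 9 passed in the limma fit, beside 0.905% of all genes. At an unadjusted limma p under 0.05 there were 4 members, and the share of all genes at that cutoff is not given. With only the groups compared in the fit 1 of 9 passed, and the share of 0.905% does not refer to that fit. By dose, 7 members at 1/10 LD50 (15.9% of all genes), 5 at 1/5 LD50 (9.43%) and 3 at 1/2 LD50 (11.3%) had all 3 libraries below saline.

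Tested over the 4 days at once, 8 of 9 members differed among days, in a test that 49.5% of all genes passed. The limma adjusted p was 2.26e-07 for Opalin, 0.00183 for Mbp, 0.00341 for Mag, 0.00449 for Mog, 0.0162 for Cldn11, 0.0242 for Cnp, 0.0336 for Apod, 0.0458 for Ermn and 0.25 for Mobp. The order of days was not the same for all. Mbp was highest at day 7 (1688 ± 312 FPKM, SD, n = 9) and lowest at day 14 (1179 ± 88.1 FPKM). Cnp was highest at day 1 (178.5 ± 40.3 FPKM) and next at day 3 (172.4 ± 18.4 FPKM), before day 7 (154.7 ± 32.7 FPKM) and day 14 (141.5 ± 17 FPKM). Ermn and Apod were lowest at day 1 (16.4 ± 3.44 and 60.1 ± 10.6 FPKM) and highest at day 7 (20.1 ± 3.52 and 73.1 ± 16.6 FPKM). The calls of Ermn and Apod were lost without both libraries of high mitochondrial share (limma adjusted p = 0.201 and 0.0542) and without the 7 libraries that lie between others (0.155 and 0.206). In the latter setting those of Cnp and Cldn11 were lost as well (0.115 and 0.118), and 4 of 9 members passed. Leaving out single libraries ended the call of Ermn in 19 of 36 cases, that of Apod in 6, and that of Cnp only without replicate 2 of 1/10 LD50 at day 14 (limma adjusted p = 0.0521). Neighbouring groups in the order of the 13 group means overlapped in 12 of 12 pairs for 7 members, and in 11 of 12 for Opalin and for Ermn.

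The dose comparison over all days gave no call. The difference of 1/2 from 1/10 LD50 was 0.25 ± 0.08 for Mag, 0.27 ± 0.09 for Cnp, 0.24 ± 0.08 for Cldn11, 0.28 ± 0.10 for Mobp and 0.23 ± 0.08 for Mog on the log2 scale (SE), with limma adjusted p between 0.111 and 0.136. It was 0.07 for Mbp, 0.05 for Opalin, 0.03 for Ermn and -0.02 for Apod. In all, 0 of 9 members passed in limma, beside 0.0408% of all genes, and up to 4 passed when a single library was left out. At an unadjusted limma p under 0.05 there were 5 members, and the share of all genes at that cutoff is not given. A dose effect that differs between days was called for 0 of 9 members (lowest limma adjusted p = 0.0884 for Apod), beside 1.59% of all genes. There were 3 members at an unadjusted limma p under 0.05, again without a share of all genes at that cutoff.

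Members were also set against each other within each library, as log2(FPKM) minus the mean of the other 8, which removes what the 9 genes share. This measure was described and not tested. Opalin is among the other 8 for every remaining member, so its rise before day 14 lowers their values by arithmetic. Opalin stood between -4.37 and -4.15 in saline, at -3.69 ± 0.15 at day 1, -3.80 ± 0.18 at day 3, -3.77 ± 0.28 at day 7 and -4.20 ± 0.18 at day 14 (SD, n = 9 each). Above all of saline were 9, 8, 8 and 4 of the 9 libraries of these days. Mbp went from 4.27 ± 0.04 in saline (SD, n = 3) to 4.48 ± 0.15 at day 7, with 7 of 9 libraries above saline, and stood at 4.24 ± 0.08 at day 14. Cnp and Cldn11 had all 9 libraries of day 7 below saline, at 0.59 ± 0.31 against 0.88 ± 0.05 and at -0.02 ± 0.13 against 0.24 ± 0.07. The 2 libraries of high mitochondrial share had the lowest values of both genes at day 7, with Cnp at 0.24 and -0.11. Without them all 7 libraries left were below saline, at 0.73 ± 0.07 for Cnp and 0.04 ± 0.08 for Cldn11 (SD, n = 7), and Mbp stood at 4.43 ± 0.13. Mag had all 9 of day 14 below saline, at 0.41 ± 0.14 against 0.57 ± 0.01, but also 7 of 9 at each of days 1, 3 and 7. Its saline range was narrow (0.559 to 0.581), and at 1/5 LD50 at day 14 it stood at 0.522 to 0.555. The shifts of Mag at days 1 and 3 were small (means of 0.525 and 0.498) and include the part that comes from Opalin. Apod had 8 of 9 below saline at day 1 (-0.88 ± 0.12 against -0.61 ± 0.10), and Ermn had 6 of 9 above it at day 14 (-2.61 ± 0.13 against -2.82 ± 0.14).

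**Figure D4:**
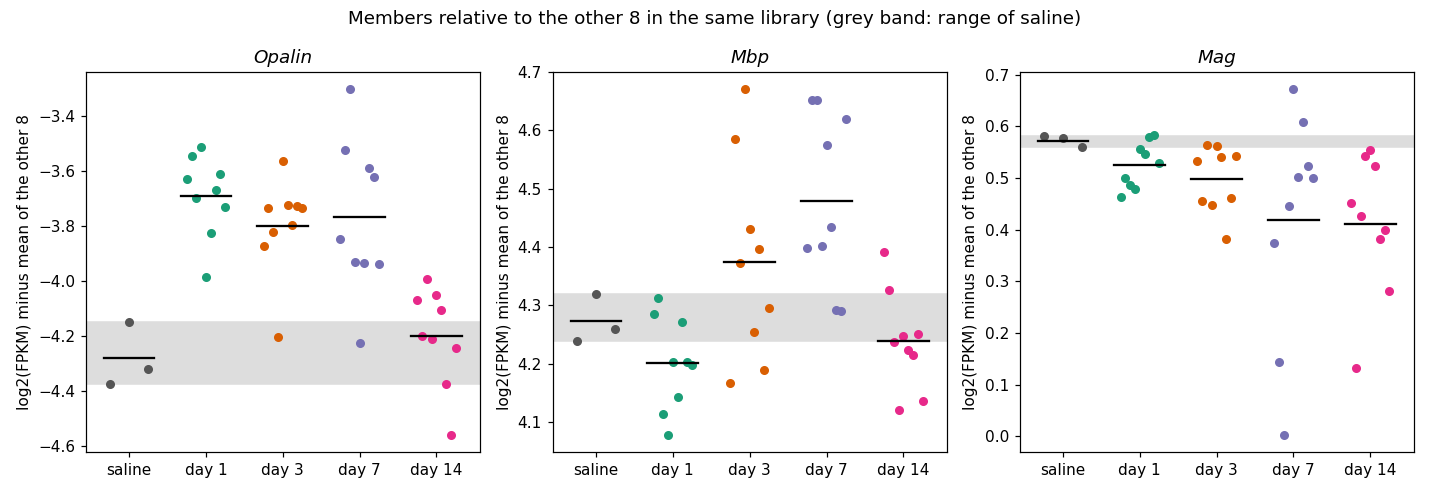
Log2(FPKM) of Opalin, Mbp and Mag minus the mean of the other 8 genes in the same library (vertical axis), for 3 saline libraries and 9 libraries of each day (points), with the mean (black line) and the range of saline (grey band). Opalin lies above the band in 9, 8 and 8 of the 9 libraries of days 1, 3 and 7, and Mbp rises above it mostly at days 3 and 7. The points of Mag lie below it in 7 of 9 libraries at each of days 1, 3 and 7 and in all 9 at day 14. For Mbp and Mag the other 8 genes include Opalin.

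Within groups the members moved from library to library together. In 3 of the 13 groups a single library held the highest value of all 9 members and another the lowest of all 9: replicates 1 and 2 at 1/10 LD50 and at 1/2 LD50 at day 1, and replicates 3 and 1 at 1/2 LD50 at day 14. Mog and Cldn11 were the closest pair over the 39 libraries (Pearson's r = 0.93) and Cnp and Ermn the loosest (0.20). A member's median r with the other 8 was 0.79 for Mog, 0.76 for Mag, 0.75 for Cldn11, 0.74 for Mobp, 0.71 for Mbp, 0.63 for Cnp, 0.51 for Opalin and for Apod and 0.43 for Ermn. These values also hold the differences between groups. Taken as deviations from the group mean, the loosest pair was Opalin and Apod (0.44), and Cnp and Ermn had 0.53. The median r was then lowest for Opalin (0.54), with 0.68 for Cnp, 0.71 for Ermn, 0.72 for Apod and up to 0.83 for Mog and Cldn11. These correlations are descriptions over libraries that share groups and days. Outside the members, the genes most like their mean (Pearson's r of standardised log2 values, 39 libraries) included Litaf (0.92), Tmem88b (0.89), Gsn (0.88), Lpar1 (0.88), Mal (0.87), Ppp1r14a (0.86) and Gamt (0.86).

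Genes of brain regions moved with the members between libraries of a group. Taken as deviations from the group mean, the mean of the members had r = 0.89 with that of 7 genes of hindbrain and spinal cord (39 libraries). These 7 are the genes among the 12 that passed the filter on low values, whereas summed levels use all 12. With 10 genes of forebrain r was -0.71, and with 11 genes of cerebellum 0.00. In 11 of 13 groups the library with the lowest mean of the members had the lowest summed hindbrain level, and in 10 the highest went together. The summed hindbrain level ran from 3.15 to 28.8 FPKM at 1/10 LD50 at day 1, and from 1.51 to 33.2 FPKM at 1/2 LD50 at day 7. The forebrain level ran from 199.7 to 360.1 FPKM at day 1, against 251.8 to 256.8 FPKM in saline. The part of brain region in the spread of the members and in their differences between days was not tested. Of 7 hindbrain genes tested, 1 rose and 0 fell from day 7 to day 14, beside 17.1% of all genes that rose and 11.5% that fell. Median summed hindbrain levels were 17.003, 15.4, 11.9 and 18.6 FPKM at days 1, 3, 7 and 14. The cerebellar level differed more between days, with medians of 512.8, 412.4, 385.3 and 477.9 FPKM, against 541.4 FPKM in saline. Single libraries fell to 111.3 and 116.4 FPKM at 1/10 and 1/5 LD50 at day 3 and to 118.04 FPKM at 1/2 LD50 at day 7. The lowest saline library stood at 509.2 FPKM.

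**Figure D5:**
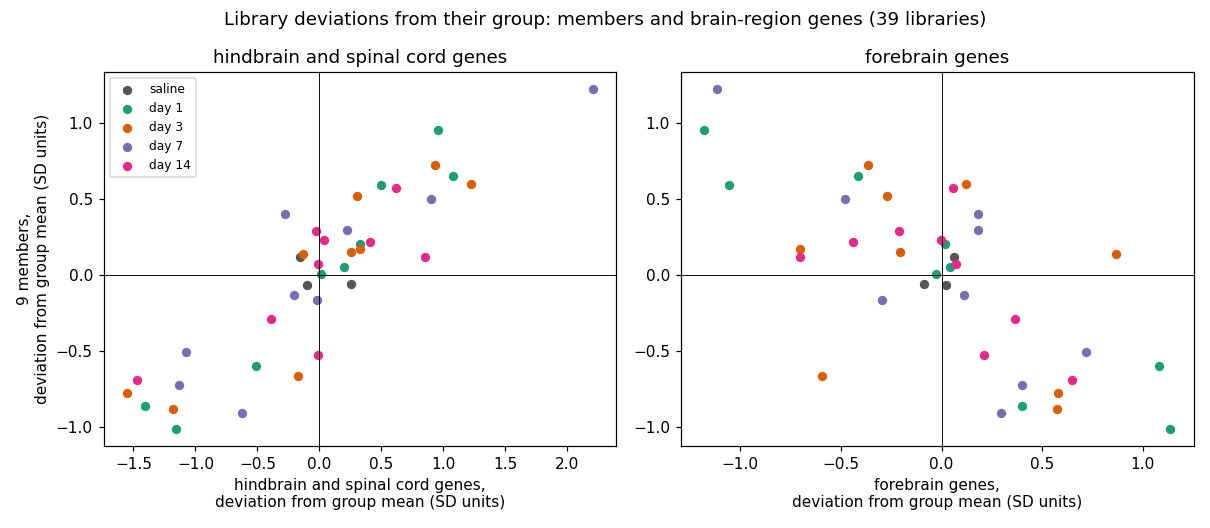
Mean of the 9 members (vertical axis) against the mean of genes of hindbrain and spinal cord (left) and of forebrain (right), each in SD units as deviation of a library from its group's mean, for 39 libraries coloured by day. The points rise to the right on the left (r = 0.89) and fall on the right (r = -0.71), with libraries of every soman day at both ends.

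Other genes of the lineage were counted by lists written with earlier results of these data known. Of 29 other myelin and mature oligodendrocyte genes tested, 13 fell and 0 rose from day 7 to day 14 (11.5% and 17.1% of all genes), with a median log2 difference of -0.25 against 0.01 for all genes. Pllp, a proteolipid of myelin, fell from 34.4 to 26.2 FPKM (-0.39 ± 0.07, SE, limma adjusted p = 0.000147) and Cryab, a small heat shock protein of oligodendrocytes, from 96.4 to 76.4 FPKM (-0.33 ± 0.08, 0.00339). Against day 1, 8 fell and 2 rose (7.67% and 7.27% of all genes). Among those that fell were Tspan2, a tetraspanin of the lineage (-0.33 ± 0.07, limma adjusted p = 0.000771), and Nfasc, whose glial form anchors the paranode (-0.30 ± 0.04, 2.83e-06). Nfasc, which neurons also express, was the only 1 of the 29 that passed against saline over all soman groups, at 38.6 against 47.1 FPKM (-0.29 ± 0.05, limma adjusted p = 0.00287). Their mean followed that of the members with r = 0.94 over 39 libraries.

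Of 22 genes of myelin lipid synthesis, which make the cholesterol and glycolipids of the sheath and are also used by other cells, 16 fell and 1 rose from day 1 to day 14, beside 7.67% and 7.27% of all genes (median -0.24 against 0.01 for all genes). Lss, which closes the sterol ring, fell from 8.6 to 6.10 FPKM (-0.43 ± 0.06, SE, limma adjusted p = 5.86e-06). Mvd, an enzyme of the mevalonate pathway, fell by 0.32 ± 0.07 (limma adjusted p = 0.00115) and Sqle, the squalene epoxidase, by 0.28 ± 0.05 (0.000278). From day 7 to day 14, 11 fell and 2 rose (11.5% and 17.1% of all genes). None of the 22 passed in limma over all soman groups against saline.

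Of 11 oligodendrocyte transcription factors, 5 fell and 1 rose from day 7 to day 14, beside 11.5% and 17.1% of all genes (median -0.17 against 0.01 for all genes). Olig1, needed for maturation of the lineage, fell from 49.7 to 34.9 FPKM (-0.49 ± 0.06, SE, limma adjusted p = 7.45e-07). Nkx6-2, a homeobox factor of myelinating cells, fell from 10.01 to 6.74 FPKM (-0.50 ± 0.10, limma adjusted p = 0.000323), and Olig2, which specifies the lineage, from 13.6 to 10.7 FPKM (-0.32 ± 0.06, 0.000342). Zeb2, a repressor that favours differentiation, stood at 12.3 and 11.6 FPKM (limma adjusted p = 0.333). Against day 1, 2 of the 11 fell, beside 7.67% of all genes.

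Of 15 genes of progenitors and newly formed oligodendrocytes, 7 fell from day 7 to day 14 (11.5% of all genes) and 6 from day 1 to day 14 (7.67%). None of the 15 rose in either, where 17.1% and 7.27% of all genes did. Enpp6, a marker of newly forming oligodendrocytes, fell in both, from 4.68 to 3.37 FPKM between days 7 and 14 (-0.37 ± 0.08, SE, limma adjusted p = 0.00128) and by 0.44 ± 0.08 from day 1 (0.000519). Pdgfra, the growth factor receptor of progenitors, fell from 9.76 to 7.66 FPKM between days 1 and 14 (-0.31 ± 0.05, limma adjusted p = 3.01e-05) and stood at 7.54 FPKM at day 7. Itpr2, a calcium channel of the endoplasmic reticulum that marks newly formed cells, fell from 3.31 to 2.56 FPKM between days 1 and 14 (-0.27 ± 0.04, limma adjusted p = 8.35e-05). Tnr, a matrix protein of progenitors, stood at 18.9 and 17.5 FPKM at these days (limma adjusted p = 0.307).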

How the data were processed

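The 39 libraries were made from RNA purified on poly(dT) beads from mouse brain, per the labels' protocols. HISAT2 aligned the reads, per the submitters' processing notes. These notes list GRCh38, a human build, although the samples are from mouse. No coordinates of the files are used. The deposited values are FPKM per gene. The program that made them is not given in the sources used here, read counts are not used here, and depth and its precision are unknown.

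Groups came from the labels. Genes at 1 FPKM or more in at least 3 libraries (14701) were fitted as log2(FPKM + 1), with a pseudocount of 1, by limma 3.58.1 under R 4.3.3, with all 13 groups in 1 model (eBayes with a trend). Differences of low genes are understated on this scale. In each of 28 comparisons the p-values of all tested genes were adjusted together (Benjamini-Hochberg), and the threshold was 0.05. The 4 comparisons of a pooled day with saline were added after the values were seen. The members and the gene lists were chosen with earlier results of these data known. Named genes were the 9 members, the 4 genes of smallest p among soman groups in each lineage list, and the 8 genes most like the members' mean. Some genes that this rule names are not reported here. Libraries in between others were sought from genes with a mean of at least 5 FPKM that differed over 2-fold between the other 2 of the group, by whether more of them took a position of 0.3 to 0.7 than in any library from another group. Alternatives were median-ratio scaling, no filter, a pseudocount of 0.1, a fit without trend, a replicate block, a fit of only the groups compared, removal of the trend on transcript length (GENCODE vM21 lengths, lowess span 0.5), and leaving out libraries singly or the 2, 7 or 6 that stood apart. The last was added after the values were seen. The fit was tested on simulated data. Figures and summaries used Python 3.11.15, numpy 2.4.6, pandas 2.3.3 and matplotlib 3.10.9.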

Additional observations from a re-analysis of the deposited data

Results flagged for a closer look

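For 8 of the 9 members the levels in the soman groups differed between days, by the limma F-test among the 4 days over all doses. Of all genes, 49.5% passed this test. Leaving out single libraries ended the call of Ermn in 19 of 36 cases, that of Apod in 6 and that of Cnp in 1. The adjusted p was 2.26e-07 for Opalin, 0.00183 for Mbp, 0.00341 for Mag, 0.00449 for Mog, 0.0162 for Cldn11, 0.0242 for Cnp, 0.0336 for Apod and 0.0458 for Ermn. Opalin and Mbp were lowest at day 14, as were Mag, Mog, Cldn11 and Cnp, whereas Ermn and Apod were lowest at day 1. For Apod the doses also differed at day 7 (limma F-test, adjusted p = 0.02), with the 1/10 LD50 group at 87.8 ± 9.73 FPKM, the 1/5 LD50 group at 69.3 ± 3.59 FPKM and the 1/2 LD50 group at 62.2 ± 21.8 FPKM (SD, n = 3 each). Of all genes, 25.4% passed that test. The call of Apod among doses was lost without any of 3 single libraries and in several of the settings described above and below.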

How the results depend on the processing

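Counts of members past the threshold are compared over 28 comparisons. A pseudocount of 0.1 and a fit without trend moved none of them by over 1.5 times, and no single result changed its direction in any setting. The fit without trend still lost the call of Mog from day 7 to day 14 (limma adjusted p = 0.0502). Median-ratio scaling moved 1, doses at day 7 (3 members), and shifted the median of all genes by under 0.1 on the log2 scale. Without a filter the counts were 0 at 1/2 LD50 at day 3, 1 at 1/10 and 0 at 1/2 LD50 at day 7, 0 for day 1 pooled against saline, 2 for day 14 against day 1, 5 among days and 0 among doses at day 7. With only the groups compared they were 0 at 1/2 LD50 at day 1, 0 at 1/5 LD50 at day 3, 0 at 1/10 and 1 at 1/5 LD50 at day 7, 1 for day 14 pooled against saline, 1 for day 3 against day 1 and 0 among doses at day 7. With the length trend removed they were 0 at 1/2 LD50 at day 3, 1 at 1/10 and 0 at 1/2 LD50 at day 7, and 2 among doses at day 7. Without the 2 libraries of high mitochondrial share the counts at 1/10 LD50 at day 7 and among doses at day 7 were 0. Without the 6 libraries of low hindbrain level they were 1 at 1/10 LD50 at day 3, 0 at 1/2 LD50 at day 7 and 1 for day 3 against day 1. Without the 7 libraries that lie between others 12 counts moved, to 0 in each of the 5 soman groups with a call, in the 3 pooled days and among doses at day 7, and to 2 for day 14 against day 7, 1 for day 14 against day 1 and 4 among days. These settings with fewer libraries also have fewer degrees of freedom, and the cause of the other moves was not tested.

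Leaving out each library in turn gave 0 to 1 member at 1/2 LD50 at day 1, at each dose at day 3, at 1/2 LD50 at day 7, for day 1 pooled against saline, for day 7 against day 3 and for the interaction of dose and day. It gave 1 to 3 at 1/10 LD50 at day 7, 1 to 1 for days 3 and 7 pooled against saline, 3 to 5 for day 14 against day 7, 2 to 5 for day 14 against day 1, 0 to 4 for 1/2 against 1/10 LD50, 6 to 8 among days and 0 to 3 among doses at day 7. In the other comparisons it gave 0 to 0.

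The labels number the replicates 1 to 3 in each group, but the numbers did not pair the libraries: deviations of same-numbered libraries from their group means correlated with those of saline between -0.160 and 0.105, and in 0 of 12 groups were all 3 over 0.1. Of 36 soman libraries, 11 correlated best with the saline library of their own number. With the replicate block the counts were 0 at 1/2 LD50 at day 7 and 0 for day 1 pooled against saline, and the other 26 stayed within 1.5 times. Depth is unknown for these values, and with 3 libraries a group the differences of single groups have an SE of 0.13 to 0.20 on the log2 scale.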

Other observations

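Marker genes of other cell types were counted over the interval from day 7 to day 14, in which 11.5% of all genes fell and 17.1% rose. Of 10 microglial genes, 5 fell and 0 rose from day 7 to day 14 (median log2 difference -0.26), with a summed level of 89.0 to 172.8 FPKM at day 7 and 105.3 to 131.4 FPKM at day 14. Of 9 endothelial genes 4 fell and 0 rose (median -0.27), and of 10 astrocyte genes 2 fell and 0 rose (median -0.04). Of 12 neuronal genes 2 rose and 0 fell (median 0.07), a share near that of all genes. Of 14 genes of meningeal fibroblasts 8 rose and 1 fell (median 0.25), and their mean had r = 0.07 with that of the members over the 39 libraries. Of 9 genes of choroid plexus tested 3 rose and 0 fell (median 0.21). The mean of the astrocyte genes had r = 0.65 and that of the endothelial genes r = 0.75 with that of the members. Their part in the differences of the members was not tested.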
